A study of Flaveria robusta and Flaveria ramosissima and Flaveria trinervia with 18 samples.

Results

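A group of 418 gene rows was at or near 0 TPM in leaves of the C3 species Flaveria robusta. Their mean levels were above 0 in 2 relatives, the C3–C4 intermediate F. ramosissima and the C4 species F. trinervia, though not every single library was. TPM is a measure of transcript abundance that takes gene length into account and gives each row a share of its library. The rows were chosen on these levels. Their mean over 6 libraries was below 0.5 TPM in F. robusta and at least 5 TPM in F. ramosissima and in F. trinervia. They made up 1.39% of the 30040 rows that could be read and 6.16% of the 6782 rows that reached 5 TPM in both of the expressing species. What follows on their levels is therefore a description, and only their light responses, which the choice did not use, were tested.

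Newly expanded mature leaves of the 3 species were sampled under a control light of 500 µmol m−2 s−1 or a high light of 1400 µmol m−2 s−1, with 3 libraries for each species and light level and 18 libraries in all. The labels give no genotype beyond the species, no plant age and no duration of the exposure. They describe growth in a chamber at a light below either level, while the series description places the plants in a greenhouse where an added lamp gave the high light. Each kind of photosynthesis was represented by a single species, so species and pathway cannot be told apart. Whether replicates were separate plants is not stated, and the p-values measure only the spread between these libraries, which may be technical.

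C3 plants fix CO2 directly with Rubisco in mesophyll cells. In C4 plants, phosphoenolpyruvate carboxylase makes the first fixation in the mesophyll, and the resulting acids are moved to the bundle sheath, where CO2 is released around Rubisco. C3–C4 intermediates refix photorespired CO2 in the bundle sheath, through glycine decarboxylase located there, and F. ramosissima is regarded as one of the more advanced intermediates of the genus. Flaveria, a genus of the daisy family, holds all of these types and is a model for the steps between them. The deposited table names its rows by number alone, and no name, function or sequence can be given for any of the 418 rows. Of these, 4 are printed by number and the others are described by rank and count.

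The TPM values listed for a library summed to between 903641 and 929124. Sequencing depth cannot be read from TPM and is unknown here, and an exact 0 is described as listed at 0. In F. trinervia, control 3 and high light 2 stood apart from the other replicates in the same way. Across the 418 rows, the deviations of these 2 libraries from the means of their own light groups had a Pearson's r of 0.81. This r was 0.80 across all tested rows. Control 3 and high light 2 were both the highest library of their light group for 128 of the 418 rows and both the lowest for 134. Such counts over all rows were not computed. Below, the counts of called rows and the light changes of the printed rows in F. trinervia are given with and without these 2 libraries, and the reason for their shared deviation was not tested. They were singled out from these same data, and leaving them out leaves 2 libraries in each light group. Where they are extreme, that choice itself lowers the spread, so p-values without them are no separate support.

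In F. robusta, 374 of the 418 rows (89.5%) were listed at 0 in all 6 libraries. The other 44 were above 0 in at least 1 library, with species means between 0.08 and 0.493 TPM and a median of 0.295. Among these, 16 were above 0 in all 6 libraries, so a low transcript level was listed repeatedly. A single F. robusta library reached 1 TPM or more for 14 rows, and the highest single value was 2.64 TPM. All 6 libraries were below 0.5 TPM for 384 rows. Summed over the 418 rows, the transcript abundance in F. robusta was 16.9, 11.8 and 11.8 TPM under control light and 15.6, 12.7 and 11.0 TPM under high light. These sums overlapped between the light levels.

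**Figure D1:**
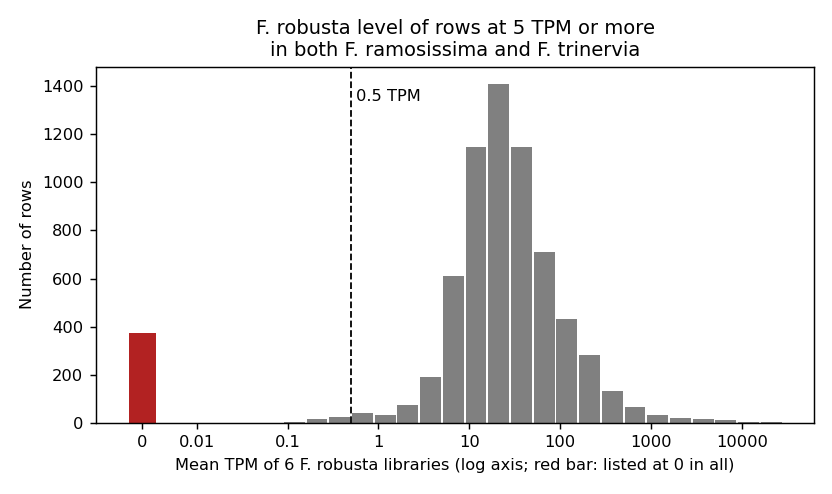
Number of rows (vertical axis) by mean TPM over the 6 F. robusta libraries (horizontal log axis) among the 6782 rows at 5 TPM or more in both other species. The red bar holds the 374 rows listed at 0 in every F. robusta library, the dashed line marks 0.5 TPM, and few rows lie between the red bar and the main body of the distribution.

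The limits cut through rows of similar level. The 3 highest F. robusta means inside it were 0.493, 0.477 and 0.463 TPM, and the 3 lowest outside it were 0.503, 0.512 and 0.518 TPM. Between 0.5 and 1 TPM there were 44 rows that met the other criteria. The lowest included means were 5.04 TPM in F. ramosissima and 5.02 TPM in F. trinervia, against 4.997 and 4.933 TPM for the nearest excluded rows. A further 48 rows missed the choice with an F. ramosissima mean of 4 to under 5 TPM, and 17 with such a mean in F. trinervia. As the histogram of F. robusta levels shows, the rows listed at 0 form a peak of their own, far below the median of 22.4 TPM over all 6782 rows.

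The same choice was made for the other species in turn. In F. trinervia, 478 rows were near absent while both other species reached 5 TPM, which was 6.88% of 6951 rows, and 395 of them (82.6%) were listed at 0 in all 6 libraries. In F. ramosissima there were 129 such rows, 1.69% of 7649, of which 98 (76.0%) were listed at 0 throughout. Rows listed at 0 in all libraries of a species were common in the whole table, with 10729 in F. robusta, 10918 in F. trinervia and 3800 in F. ramosissima. The sources used here do not say how rows were paired between the species. A transcript that is absent from F. robusta leaves and a row that takes up no F. robusta reads for another reason cannot be told apart, and in whole leaves neither can fewer cells of a type and less RNA per cell.

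The position of the rows in the table's numbering differed from that of the other rows. Of the 418 rows, 278 (66.5%) had numbers above 19000. Above this number, the near-absent rows were 9.43% of the 2947 rows that reached 5 TPM in both expressing species, and up to it they were 3.65% of 3835. Rows near absent in F. trinervia alone had a similar place, with 73.4% above 19000. The number 19000 was chosen after the zeros were seen. Among numbers 18001 to 19000, 25.6% of rows were listed at 0 in every F. robusta library, 27.4% in every F. trinervia library and 20.6% in every F. ramosissima library. Among numbers 19001 to 20000 these shares were 64.5%, 61.9% and 0%. Above 19000, 47.4% of all rows were listed at 0 in every F. robusta library, 46.7% in every F. trinervia library and 0.0870% in every F. ramosissima library, against 24.2%, 26.1% and 25.1% up to it. What the numbering stands for is not given, and its part in the zeros of F. robusta was not tested. The 418 rows were scattered within the numbering, with 10 pairs of direct neighbours. The reverse pattern, at least 5 TPM in F. robusta and near 0 in both relatives, was found in 244 rows, and 3 of the 418 rows were direct neighbours of one.

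In the expressing species, most of the rows were of moderate abundance. The median species mean was 13.8 TPM in F. ramosissima (quartiles 7.72 and 34.0) and 17.5 TPM in F. trinervia (quartiles 9.62 and 41.7). Over all 6782 rows at 5 TPM in both species the medians were 16.6 and 24.8 TPM. Levels under 10 TPM were found for 164 rows in F. ramosissima and 111 in F. trinervia, levels of 100 TPM or more for 31 and 40, and levels of 1000 TPM or more for 5 and 2. The 44 rows with some F. robusta signal had medians of 19.2 and 20.8 TPM, against 12.7 and 17.1 TPM for the 374 rows listed at 0.

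The summed abundance of the rows was of similar size in the 2 expressing species. In F. ramosissima they summed to 23166, 22963 and 22362 TPM under control light and to 22600, 23713 and 24452 TPM under high light, and the groups overlapped. In F. trinervia they summed to 25096, 24375 and 24215 TPM under control light and to 21949, 21640 and 22407 TPM under high light, all 3 below every control. As a share of listed TPM, this was 2.49% ± 0.0475 and 2.57% ± 0.0927 in F. ramosissima and 2.65% ± 0.0515 and 2.38% ± 0.0376 in F. trinervia (SD, n = 3). The direction in F. trinervia depended on how libraries were scaled. After each library was divided by its median ratio to the others, which removes a shift shared by most rows, the F. trinervia sums were 22920, 22275 and 19866 TPM under control light and 24789, 24431 and 24886 TPM under high light. The high-light libraries then lay above all controls. The scaled F. ramosissima sums were 18826, 25037 and 20177 TPM under control light and 22296, 27894 and 24523 TPM under high light, and overlapped.

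A few rows carried much of these sums. The 10 most abundant held 53.5% of the summed TPM in F. ramosissima and 43.2% in F. trinervia, and 4 rows were among the 10 in both. The most abundant row was the same in both species. It was listed at 0 in all F. robusta libraries. In F. ramosissima it had 2957, 2734 and 3179 TPM under control light and 3203, 4124 and 3278 TPM under high light. In F. trinervia it had 4672, 5119 and 4814 TPM under control light and 3867, 4338 and 4173 TPM under high light. The light groups did not overlap in either species and lay in opposite directions, but neither difference passed (log2 change 0.25, limma adjusted p = 0.647, and −0.24, limma adjusted p = 0.0811).

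The levels of the 418 rows were only loosely ordered alike in the 2 expressing species. Across the rows, Pearson's r of the log2 levels was 0.52 (Spearman's rho 0.46, n = 418 rows), against 0.76 (rho 0.66) over the 6782 rows at 5 TPM in both. Each axis rests on the same 6 libraries for every row, and rows are not independent. The level was higher in F. trinervia for 264 rows (63.2%) and in F. ramosissima for 154. This share was 69.0% over the 6782 rows. All 6 F. trinervia libraries lay above all 6 of F. ramosissima for 103 rows (24.6%, against 33.7% of the 6782 rows), and the reverse held for 51 (12.2%, against 9.57%). The median ratio of F. trinervia to F. ramosissima was 1.33 among the 418 rows and 1.45 among the 6782.

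**Figure D2:**
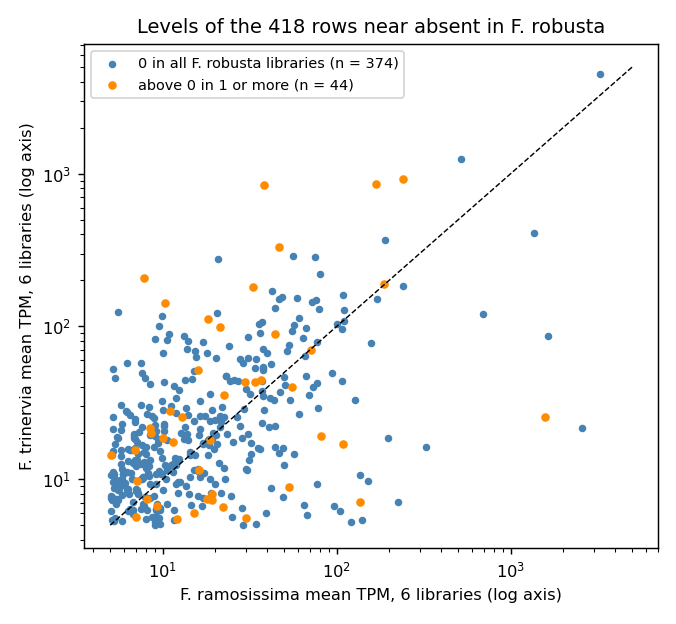
Mean TPM of each of the 418 rows in F. ramosissima (horizontal) and F. trinervia (vertical), over 6 libraries each, on log axes. Blue points are the 374 rows listed at 0 in all F. robusta libraries, orange points the 44 rows above 0 in some of them, and the dashed line marks equal levels, from which 8 rows lie at least 10 times above and 14 at least 10 times below.

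Some rows differed widely between the expressing species. The level was at least 10 times higher in F. ramosissima for 14 rows and in F. trinervia for 8. The widest gap towards F. ramosissima was in its second most abundant row, with 2733, 2400 and 2316 TPM under control light and 2077, 2878 and 3020 TPM under high light. In F. trinervia the same row had 18.1, 12.4 and 49.6 TPM under control light and 14.04, 15.6 and 19.6 TPM under high light. Its mean was 119 times higher in F. ramosissima, and it was listed at 0 throughout F. robusta. The widest gap towards F. trinervia was in a row with 196, 216 and 245 TPM under control light and 203, 202 and 175 TPM under high light in that species. In F. ramosissima it had 4.10, 7.50 and 6.99 TPM under control light and 11.0, 8.26 and 9.30 TPM under high light. Its mean was 26.2 times higher in F. trinervia, and it was above 0 in every F. robusta library, with a mean of 0.352 TPM. The points far from the diagonal in the plot of levels are rows of this kind.

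Expression was steadier between libraries in F. trinervia than in F. ramosissima. Every F. trinervia library was at 5 TPM or more for 359 rows and every F. ramosissima library for 278. At least 1 F. ramosissima library was below 1 TPM for 24 rows and at 0 for 11, against 1 row and 0 rows in F. trinervia. Within a light group, the SD of the 3 log2 values had a median of 0.399 for controls and 0.368 for high light in F. ramosissima, and 0.189 and 0.195 in F. trinervia. The 6782 rows at 5 TPM in both had lower medians, at 0.324 and 0.304 and at 0.158 and 0.162. A single library held over 50% of the summed F. ramosissima TPM for 10 rows and of the summed F. trinervia TPM for 2. Without their highest library, 32 rows fell below 5 TPM in F. ramosissima and 12 in F. trinervia. In the row with the highest log2 change of F. ramosissima, for example, high light 3 had 768 TPM and the other 5 libraries had between 0 and 0.43 TPM. With every library required to meet the limits, in place of the mean, 220 rows were left.

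The light response was tested in each expressing species alone with limma on log2(TPM + 1), with p-values adjusted by Benjamini and Hochberg's method across every tested row and a threshold of 0.05. A change on this scale understates that of rows of low abundance. All 418 rows entered both tests, because their species means were above the filter of 1 TPM by choice.

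In F. trinervia, 190 of the 418 rows (45.5%) passed, where 43.1% of all 14553 tested rows did. Lower abundance under high light was called for 137 rows (32.8%), against 36.3% of all tested rows, and higher abundance for 53 (12.7%), against 6.82%. Among the 6782 rows at 5 TPM in both species these shares were 36.5% and 11.4%, close to those of the 418. Without control 3 and high light 2, 179 rows (42.8%) were called lower and 101 (24.2%) higher, against 43.4% and 15.7% of tested rows. The shares among the 6782 rows were not computed without these libraries. The number of called rows was 120 (28 higher, 92 lower) without control 1 and 93 (16 higher, 77 lower) without control 2, where 26.0% and 21.8% of tested rows were called.

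Which direction was the more frequent depended on scaling. As deposited, 263 of the 418 rows had a change below 0, with a median log2 change of −0.23, and the median of all tested rows was −0.29. After median-ratio scaling the median of the 418 rows was 0.10, and 100 rows (23.9%) were called higher and 35 (8.37%) lower, against 14.3% and 10.1% of the tested rows. Without control 3 and high light 2 the scaled counts were 148 higher (35.4%) and 108 lower (25.8%), against 25.7% and 23.4% of tested rows. Shares among rows of matched level were not computed for the scaled counts. Directions in F. trinervia are therefore relative to the library total, unless scaling is named.

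**Figure D3:**
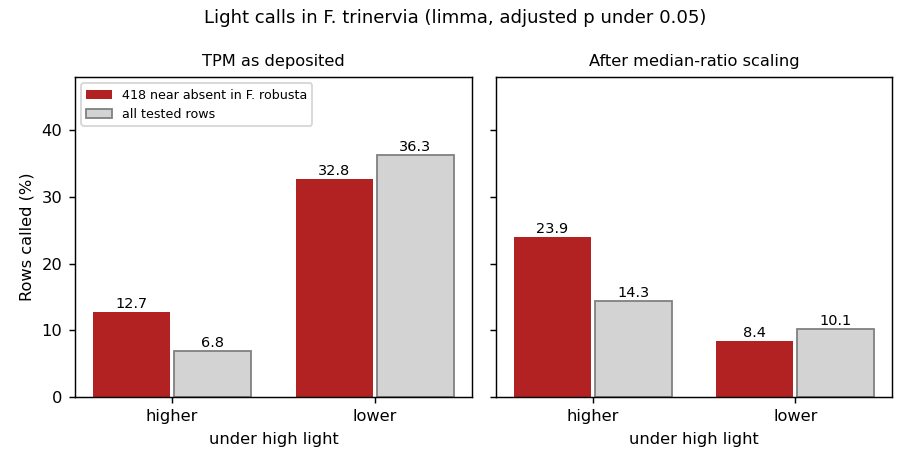
Percentage of rows called higher or lower under high light in F. trinervia (vertical axis, limma, adjusted p under 0.05), for the 418 rows near absent in F. robusta (red) and all tested rows (grey). Falls outnumber rises with the TPM as deposited (12.7% higher and 32.8% lower for the 418 rows) and rises outnumber falls after median-ratio scaling (23.9% and 8.37%).

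Most called changes were small. Among rows called in F. trinervia, the median log2 change was 0.79 for rises and −0.68 for falls, and 152 of 190 changed by less than 2-fold. A rise of at least 2-fold was called for 16 rows and a fall of at least 2-fold for 22. The sizes of called changes were not computed over all tested rows or over the 6782 rows. Whether small changes were more common among the chosen rows was therefore not tested. All 190 called rows had light groups that did not overlap. By that measure alone, the lowest high-light value exceeded the highest control for 73 rows (17.5%), against 9.69% of tested rows. The reverse held for 178 (42.6%), against 46.8%. Tested rows reach down to a mean of 1 TPM, so these shares are not matched in level. Rows higher in F. trinervia with overlapping groups in F. ramosissima were 14.1% of the chosen rows and 13.0% of the 6782 rows. Those also not overlapping in F. ramosissima were 0.478% and 0.708% (higher there) and 2.87% and 1.73% (lower there). For rises, the gap was therefore smaller against the 6782 rows, which share the limit of 5 TPM but were not matched in level. The direction varied with abundance. Of 111 rows between 5 and 10 TPM in F. trinervia, 5 rose (4.50%, against 3.23% of all tested rows of that class) and 46 fell (41.4%, against 43.8%). Of 267 rows between 10 and 100 TPM, 41 rose (15.4%, against 8.25%) and 86 fell (32.2%, against 40.1%). Of 40 rows at 100 TPM or more, 7 rose (17.5%, against 29.0%) and 5 fell (12.5%, against 16.4%).

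In F. ramosissima, none of the 418 rows passed, with limma adjusted p-values of 0.382 or more, and 0.0222% of 18043 tested rows did. An unadjusted p under 0.05 was found for 34 rows (8.13%), against 9.60% of tested rows. The limma model of all 12 libraries of both expressing species called 7 of the rows (2 higher, 5 lower), and the model of all 18 libraries called 17 (7 higher, 10 lower), where 2.17% and 3.87% of tested rows were called. These models estimate 1 error over several species and have more residual degrees of freedom, and which of these changed the counts was not tested. The 3 high-light libraries lay above the 3 controls for 22 rows (5.26%), against 4.97% of tested rows, and below them for 39 (9.33%), against 10%. The median log2 change was −0.063 over the 418 rows and −0.12 over all tested rows. It was 0.099 after median-ratio scaling and 0.00076 without control 1, so no common direction was seen. Changes of 2-fold or more in either direction were measured for 36 rows, without passing the test, and the share over all tested rows was not computed.

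The light responses of the 2 species were compared by the test of their difference, in a limma model of their 12 libraries. Of the 418 rows, 36 (8.61%) differed, against 7% of 12030 tested rows. The response was more negative in F. trinervia for 23 rows, where the background was 5.01%, and more positive for 13, where it was 1.99%. This background reaches down to a mean of 1 TPM. With the filter at 5 TPM in both species, 44 of the 418 rows differed (17 more positive, 27 more negative). That share was no higher than the 11.4% of 6783 tested rows, so no excess was seen over rows with the same lower limit. In 21 of the 23 rows the measured change was below 0 in F. trinervia and above 0 in F. ramosissima, and in 12 of the 13 rows it was the reverse. A choice on the difference favours opposite signs in advance, so this is no separate result about these rows. In F. trinervia alone, 20 of the 23 and 11 of the 13 were also called, while in F. ramosissima 7 and 7 had an unadjusted p under 0.05. The shares of such rows among all tested rows called in the difference were not computed. The size of the difference lay between 0.72 and 2.84 on the log2 scale for the 23 rows and between 0.95 and 2.75 for the 13.

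The number of rows with differing responses was not stable. It was 23 (9 more positive, 14 more negative) when each species was given a weight for its own spread, where 4.73% of tested rows were called. Leaving out 1 F. trinervia library gave 3 rows (control 1), 2 (control 2), 12 (high light 1), 4 (high light 2) or 10 (high light 3), where 0.666%, 0.541%, 1.87%, 0.971% and 1.81% of tested rows were called. Leaving out F. ramosissima high light 1 or control 3 gave 21 or 24, against 3.82% and 4.72% of tested rows. Without both F. trinervia control 3 and high light 2 it was 14 (8 more positive, 6 more negative), against 3.10% of tested rows. After median-ratio scaling, the F. trinervia response was the more positive for 21 rows and the more negative for 14, against 3.93% and 3.41% of tested rows.

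Few rows had light groups that did not overlap in both species. Lower abundance under high light in both was found for 12 rows (2.87%, against 3.51% of the 6782 rows) and higher abundance in both for 2 (0.478%, against 0.708%). Opposite directions were found for 26 rows. Of these, 14 were lower in F. trinervia and higher in F. ramosissima (3.35%, against 3.32%), and 12 were the reverse (2.87%, against 1.73%). Across the 418 rows, Pearson's r of the 2 light changes was −0.13 (Spearman's rho −0.15), and across the 6782 rows −0.068 (rho −0.13). These correlations are across rows, which share libraries and are not replicates.

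**Figure D4:**
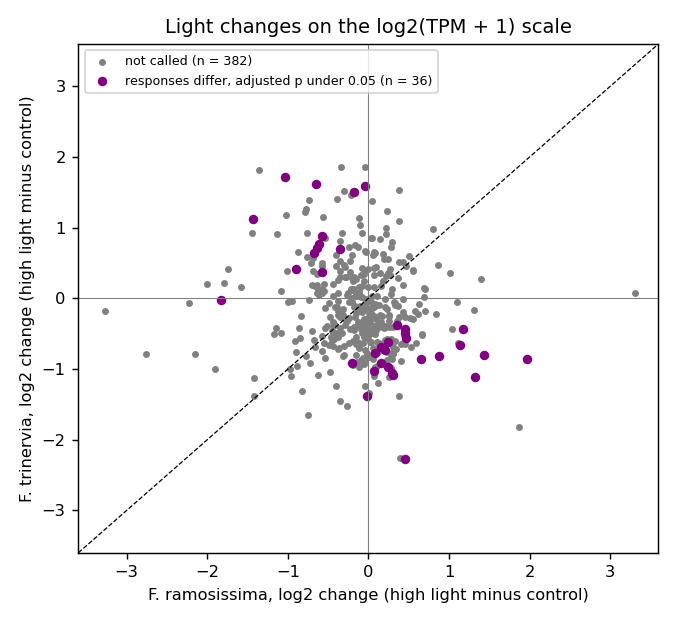
Change under high light on the log2(TPM + 1) scale in F. ramosissima (horizontal) and F. trinervia (vertical) for each of the 418 rows. Purple points are the 36 rows whose responses differed between the species (limma, adjusted p under 0.05), and the dashed line marks equal responses. They lie mostly at the upper left and lower right, which a choice on the difference favours.

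The 4 printed rows were picked by size or p of the light response in the expressing species. Gene05079 had the largest called fall in F. trinervia. Its abundance there was 76.1, 61.2 and 41.6 TPM under control light and 14.5, 6.66 and 14.1 TPM under high light, and the 2 groups did not overlap. The means were 59.6 ± 17.3 and 11.8 ± 4.42 TPM (SD, n = 3), and the log2 change was −2.28 with an SE of 0.34 (limma adjusted p = 0.00577). In F. ramosissima the row had 18.9, 18.2 and 15.0 TPM under control light and 49.5, 16.5 and 17.0 TPM under high light. These groups overlapped, with a log2 change of 0.46 (limma adjusted p = 0.767) that rests on high light 1 and was −0.043 without it. The difference between the responses was −2.74 (SE 0.58, limma adjusted p = 0.0252). It did not pass without F. trinervia control 1, control 2, high light 2 or high light 3, with limma adjusted p-values from 0.0507 to 0.0805. With the replicate number as a block it did not pass either (limma adjusted p = 0.0634). The fall in F. trinervia did not pass with that block and median-ratio scaling together (limma adjusted p = 0.0544). Without both F. trinervia control 3 and high light 2, the change in F. trinervia was −2.18 (limma adjusted p = 7.83e-05) and the difference −2.64 (limma adjusted p = 0.0484). In F. robusta it was listed at 0.18, 0 and 0.18 TPM under control light and at 0.19, 0 and 0.37 TPM under high light.

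Gene19154 had the largest called rise in F. trinervia. It had 6.47, 6.76 and 18.2 TPM under control light and 25.6, 72.8 and 26.1 TPM under high light. The groups did not overlap, and within each the highest library was 1 of the 2 that stood apart, control 3 or high light 2. The log2 change was 1.86 (SE 0.53, limma adjusted p = 0.0316). It did not pass without control 1, control 2, high light 2 or high light 3, with limma adjusted p-values from 0.0543 to 0.104. With the replicate block it did not pass either (limma adjusted p = 0.0667, and 0.0689 with median-ratio scaling added). It passed without control 3 (limma adjusted p = 0.0119) and without both control 3 and high light 2, where the change was 1.82 with an SE of 0.086 (limma adjusted p = 7.53e-05). That low SE follows from leaving out the highest library of each group. In F. ramosissima it had 27.0, 11.3 and 25.7 TPM under control light and 27.4, 9.62 and 26.9 TPM under high light, nearly the same values in both light groups (log2 change −0.040, limma adjusted p = 0.987). The difference between the responses, 1.90 (SE 0.77), did not pass (limma adjusted p = 0.146). It was listed at 0 in all F. robusta libraries.

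Gene00452 had the smallest p among rows with a positive change in F. ramosissima. It had 22.5, 32.1 and 37.3 TPM under control light and 83.0, 158 and 134 TPM under high light in that species, and the groups did not overlap. The means were 30.6 ± 7.47 and 125 ± 38.4 TPM (SD, n = 3), with a log2 change of 1.97 (SE 0.32) that did not pass across all tested rows (limma adjusted p = 0.382). In F. trinervia it had 50.0, 32.6 and 32.9 TPM under control light and fell to 20.2, 20.6 and 20.1 TPM under high light (log2 change −0.86, SE 0.18, limma adjusted p = 0.0117). That fall did not pass after median-ratio scaling (log2 change −0.53, limma adjusted p = 0.096), also with the replicate block (0.138), or after quantile normalization (−0.62, limma adjusted p = 0.0669). It passed without control 3 and high light 2 (−0.97, limma adjusted p = 0.00428), with median-ratio scaling added too (−0.69, limma adjusted p = 0.017). The difference between the responses was −2.84 (SE 0.38, limma adjusted p = 0.00753). The row was listed at 0 in all F. robusta libraries.

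Gene22055 had the smallest p among rows with a negative change in F. ramosissima. It had 414, 376 and 268 TPM under control light and 124, 108 and 160 TPM under high light in that species (log2 change −1.43, SE 0.25, limma adjusted p = 0.437). In F. trinervia it had 289, 356 and 166 TPM under control light and 103, 77.8 and 120 TPM under high light (log2 change −1.38, SE 0.31, limma adjusted p = 0.0149). The latter did not pass without F. trinervia control 1 (limma adjusted p = 0.0513) or control 2 (0.0516), nor after median-ratio scaling (0.0691). With the replicate block it did not pass either (limma adjusted p = 0.0525, and 0.139 with median-ratio scaling added). It passed without both F. trinervia control 3 and high light 2 (−1.52, limma adjusted p = 0.000204), with scaling added too (−1.24, limma adjusted p = 0.000233). The groups did not overlap in either species. The difference between the responses was 0.048 (SE 0.41, limma adjusted p = 0.955), which does not show that they were equal. The row was listed at 0 in all F. robusta libraries, and of the 4 printed rows it was the most abundant in both expressing species.

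**Figure D5:**
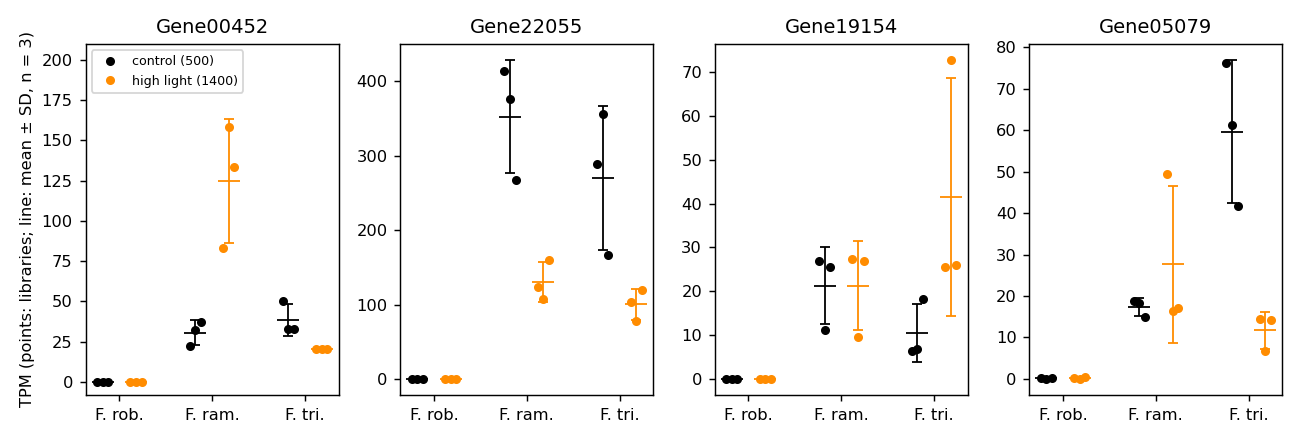
TPM of the 4 printed rows in F. robusta, F. ramosissima and F. trinervia under control light (black) and high light (orange). Points are libraries and lines the mean ± SD (n = 3), and the high-light points of Gene00452 lie above the controls in F. ramosissima and below them in F. trinervia.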

How the data were processed

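The authors deposited 1 table of TPM values for 18 leaf libraries, sequenced as paired-end reads of 150 bp. The submitters' processing notes name RSEM and edgeR, without versions or roles. The sources used here name no aligner or reference. Column letters H and L were read as high light and control, which the labels do not spell out. Of 30041 rows, 1 ran on into the next and was left out, and 929 of the other 30040 were at 0 everywhere.

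Light responses were tested with limma version 3.58.1 in R version 4.3.3 (lmFit, eBayes with trend, two-sided), each species alone on rows whose mean in that species reached 1 TPM, and their difference in the 12 libraries of both species. F. robusta was left out because its values near 0 would lower the error. The 4 printed rows were, per expressing species, the largest called rise and fall with groups that did not overlap and at least 5 TPM in the higher group, or the smallest p in each direction where none was called. The members, tests and rules were chosen with earlier results of these data known. No gene list could be used on numbered rows. Alternatives were a pseudocount of 0.1, other filters, scalings and models, the replicate number as a block, and leaving out libraries. Combinations of scaling with the block, with species weights or without F. trinervia control 3 and high light 2 were added after the data were examined. The code was tested on simulated data.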

Additional observations from a re-analysis of the deposited data

Results flagged for a closer look

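Among the 4 printed rows, 2 had light responses that differed between the expressing species by the test of the difference itself. Gene00452 differed by −2.84 on the log2 scale (F. trinervia minus F. ramosissima, limma adjusted p = 0.00753, and from 0.00101 to 0.0409 over 23 alternatives), with the 3 high-light libraries above the controls in F. ramosissima and below them in F. trinervia. Gene05079 differed by −2.74 (limma adjusted p = 0.0252, and from 0.011 to 0.0805 over 23 alternatives), with the 3 high-light libraries below the controls in F. trinervia and overlapping groups in F. ramosissima.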

How the results depend on the processing

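Of the 418 rows, the number called by light in F. trinervia was 126 after quantile normalization (84 higher, 42 lower), where 21.4% of tested rows were called. It was 101 with the replicate block (23.2% of tested rows), 81 in the model of 12 libraries (22.7%) and 88 in the model of 18 libraries (13.7%). After median-ratio scaling with the replicate block it was 0 (0% of tested rows). An unadjusted p under 0.05 in limma was then found for 178 of the 418 rows and for 4725 of 14498 tested rows. Without 1 library the number called was between 93 and 225, where 21.8% to 48.2% of tested rows were called. In F. ramosissima it was 0 without any 1 library, 7 in the model of 12 libraries (2.17% of tested rows) and 17 in that of 18 (3.87%). Without 1 library, 22 to 60 rows there had an unadjusted p under 0.05 in limma. The lowest, without high light 2, went with 1057 of 18205 tested rows, and the highest, without control 2, with 2714 of 18196. For the difference of responses, 22 rows were called with no filter other than a value above 0 (4.09% of tested rows). The number was 1 with the replicate block (0.2%). It was 23 with species weights (4.73%) and 14 without F. trinervia control 3 and high light 2 (3.10%). Without 1 library it was between 2 and 45, where 0.541% to 9.38% of tested rows were called. Same-numbered libraries did not deviate together in every pair (r of 0.67, −0.60 and −0.59 in F. trinervia, −0.094, 0.18 and 0.070 in F. ramosissima), so the numbers were not taken as pairs. The median change in F. trinervia was 0.10 after median-ratio scaling, 0.021 after quantile normalization and between −0.25 and −0.18 without 1 library. In F. ramosissima it was between −0.20 and 0.00076. The number of rows chosen was 220 with the limits set on every library, 432 from the control libraries alone, 381 from the high-light libraries alone, 462 after median-ratio scaling and between 407 and 429 without 1 library. Of 220 values of single printed rows under alternatives, 181 kept direction and side of the threshold, 20 no longer passed, 4 newly passed and 15 changed sign, none of them called. The last concern 3 results, all near 0 or with overlapping groups. The F. ramosissima change of Gene05079 lay between −0.043 and 0.72 without 1 library. That of Gene19154 was 0.13 after median-ratio scaling (with the block too), 0.12 after quantile normalization and between −0.43 and 0.43 without 1 library. The difference of responses of Gene22055 was −0.068 after quantile normalization, −0.099 without F. trinervia control 3 and high light 2, −0.070 when median-ratio scaling was added to that, and between −0.27 and 0.28 without 1 library. Where no value above shows it, the cause was not tested. TPM keeps no depth, so no detection limit can be set for the values of F. robusta.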
